A study of Mus musculus with 9 samples.

Results

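The genes described here are 36 listed members of the cellular response to low oxygen and of glycolysis, measured in 9 derivatives of 4T1, a mouse mammary carcinoma cell line known for spreading from the mammary gland to distant organs. They were taken from a given list by gene symbol, with the probe set of highest mean level standing for each gene. Of the 36, 34 had a probe set annotated to that gene alone, out of 19938 genes tested in all. Gpi1 and Eno1 were not analysed here. Of the 34, 17 carry glucose transport and glycolysis and 17 are other hypoxia genes, and all 34 were tested, since no filter on low values was applied.

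The lines fall into 3 origins with 3 lines each: brain metastasis (4T1-BM2, called brain lines), lung metastasis (4T1-LM2, called lung lines) and primary tumor (4T1-T2, called primary lines). Each of the 9 lines has 1 array. The sample titles number the mice 1 to 3 in each origin and do not say whether equal numbers mean the same mouse. Lines are numbered here by that mouse number. The cells were thawed, cultured and extracted in parallel, so these are levels in culture and not in the tumor, and the labels name no treatment, mouse strain, age or oxygen level. The lines of an origin share 1 name, and what that name marks is not stated, so the 3 lines may be less independent than 3 unrelated samples. The p-values measure only the spread between lines of the same origin, pooled over the 3 origins and moderated across genes. Values are log2 intensities, and in bulk RNA of this kind fewer cells of a type and less RNA per cell cannot be told apart.

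Cells sense oxygen through the transcription factor HIF, whose alpha subunits (Hif1a, Epas1) are made continuously and are destroyed when prolyl hydroxylases of the Egln family modify them, a reaction that needs oxygen. When oxygen is short the alpha subunits persist, pair with ARNT and bind hypoxia response elements, whose core reads ACGTG or GCGTG, near genes for glucose uptake, glycolysis, lactate production, mitochondrial turnover and collagen modification. Many tumors keep glycolysis high even in ample oxygen, and several glycolytic genes also answer to other regulators such as MYC.

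The sequences below are the 250 bases upstream of the RefSeq transcription start (build GRCm38.p6, reference genome and not read from these lines) of 4 members that were higher in brain lines, Higd1a, Hk2, P4ha2 and Tpi1, and of Ldha, the lactate dehydrogenase gene, a textbook HIF target that did not pass any test here. They lie just before the first exon of that transcript, at chr9:121857797-121858046 on the minus strand, chr6:82774455-82774704 on the minus strand, chr11:54100674-54100923 on the plus strand, chr6:124814159-124814408 on the minus strand and chr7:46845554-46845803 on the plus strand. Capitals mark each ACGTG or GCGTG, or its reverse complement, which shows as CACGT or CACGC.
Higd1a: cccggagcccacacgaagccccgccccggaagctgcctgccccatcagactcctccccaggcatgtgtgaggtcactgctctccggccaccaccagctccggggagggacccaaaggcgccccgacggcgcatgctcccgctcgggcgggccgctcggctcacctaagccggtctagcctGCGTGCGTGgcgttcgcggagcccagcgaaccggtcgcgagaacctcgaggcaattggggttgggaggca
Hk2: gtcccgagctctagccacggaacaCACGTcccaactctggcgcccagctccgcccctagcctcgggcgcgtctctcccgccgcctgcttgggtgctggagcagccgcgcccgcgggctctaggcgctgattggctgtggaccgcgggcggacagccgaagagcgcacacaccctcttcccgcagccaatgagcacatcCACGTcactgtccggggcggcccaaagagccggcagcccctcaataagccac
P4ha2: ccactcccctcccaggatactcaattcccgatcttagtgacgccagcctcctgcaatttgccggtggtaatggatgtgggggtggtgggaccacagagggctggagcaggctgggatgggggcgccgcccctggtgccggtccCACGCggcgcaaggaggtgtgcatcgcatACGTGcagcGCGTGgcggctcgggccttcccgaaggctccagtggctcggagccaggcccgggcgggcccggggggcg
Tpi1: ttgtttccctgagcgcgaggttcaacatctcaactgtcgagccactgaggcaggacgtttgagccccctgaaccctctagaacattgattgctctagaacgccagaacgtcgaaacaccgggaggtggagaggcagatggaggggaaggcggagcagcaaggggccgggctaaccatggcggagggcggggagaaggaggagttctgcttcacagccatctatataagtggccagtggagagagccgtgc
Ldha: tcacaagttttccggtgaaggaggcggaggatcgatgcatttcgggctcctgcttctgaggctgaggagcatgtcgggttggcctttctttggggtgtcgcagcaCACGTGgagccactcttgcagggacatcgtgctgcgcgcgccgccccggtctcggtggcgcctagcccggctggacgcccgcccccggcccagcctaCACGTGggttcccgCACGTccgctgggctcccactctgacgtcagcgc
Higd1a held 2 overlapping copies of GCGTG, whose first letters lie 70 and 66 bases before the start. Hk2 held 2 copies of ACGTG on the opposite strand, P4ha2 held 3 matches and Tpi1 held 0 in this window. Ldha held 5 matches, 4 of which are the 2 strands of CACGTG, a palindrome that is also an E-box, the site of MYC and BHLHE40-type factors. A match of these letters is a description and not a site shown to be bound. Among the tested members with a window in the table, 27 of 29 had at least 1 match in some window (93.1%). Over the 27025 genes of the table, which are not limited to the genes tested, the share was 41.5%. Counted by window, the shares were 77.3% of 44 and 38.6% of 32851. The genes of the table were not matched to the members for number of windows or base content. The list was drawn up of genes known to respond to hypoxia. Bhlhe40, Bnip3l, Ndrg1, Epas1 and Slc2a3 had no entry in the promoter table.

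A gene was called where the p of limma's moderated test, adjusted by the Benjamini-Hochberg method for 19938 genes, fell under 0.05. Array medians lay between 5.06 and 5.19, and the spread around gene medians was widest in brain line 3 and lung line 1. Probe sets with no gene symbol had a median level of 4.21, taken here as a rough mark of background. Of the 8 mammary epithelial markers, 8 lay above that mark, with Krt8 at 12.78 in brain, 12.93 in lung and 12.87 in primary lines. Over 9 lists of markers of other cell types, 41 genes were tested and limma called none in any comparison, with 3 at an unadjusted p under 0.05 between brain and primary lines, 4 between brain and lung lines and 1 between lung and primary lines. Of 7 macrophage and microglia markers 3 lay above the background mark, Cd68 at 6.01 in brain, 6.15 in lung and 6.09 in primary lines, Tmem119 at 4.84 to 4.88 and P2ry12 at 4.42 to 4.59, while the pan-leukocyte gene Ptprc was at 3.87 to 3.92. The T cell marker Cd3e was at 4.94 in brain, 5.01 in lung and 4.89 in primary lines. The fibroblast-associated receptor gene Pdgfra was measured at 7.30, 7.53 and 7.57 in the same order. Of the 8 epithelial markers 2 (Krt14 and Cdh1) were called higher in brain than in primary lines and 2 (Krt14 and Cldn7) higher in brain than in lung lines. The sum of the 8 log2 levels was 76.0 to 77.9 in brain lines, 70.6 to 73.1 in lung lines and 70.8 to 73.7 in primary lines, so the lung and primary sums overlap. The sum over 5 neuron markers, none of them called, was 24.2 to 25.1 in brain lines, 25.6 to 26.2 in lung lines and 25.2 to 25.4 in primary lines, with 5 of 5 below 0 in brain against either other origin. The part of either list in the results below was not tested.

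Whether hypoxia and glycolysis genes differ between brain and primary lines is the main comparison. Brain lines had higher levels of 5 of the 34 members and lower levels of none, and 29 did not pass. Those that rose were Higd1a (1.70-fold), Bhlhe40 (2.42-fold) and P4ha2 (1.58-fold) among the hypoxia genes and Hk2 (1.40-fold) and Tpi1 (1.27-fold) among the glycolytic genes. Over all genes the same test called 1.56% higher and 1.57% lower in brain lines, or 3.13% in either direction, and after median centring of the arrays the calls split 459 higher to 218 lower, against 311 to 313. The share called among members, which were chosen with earlier results of these data known, was 14.7%. At an unadjusted p under 0.05 there were 14 members, against 15.8% of all genes. The median log2 change was 0.132 over the glycolytic members and 0.039 over the hypoxia members, against 0.005 over all genes. Of the 34 changes 21 were above 0, against 51.7% of all genes.

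**Figure D1:**
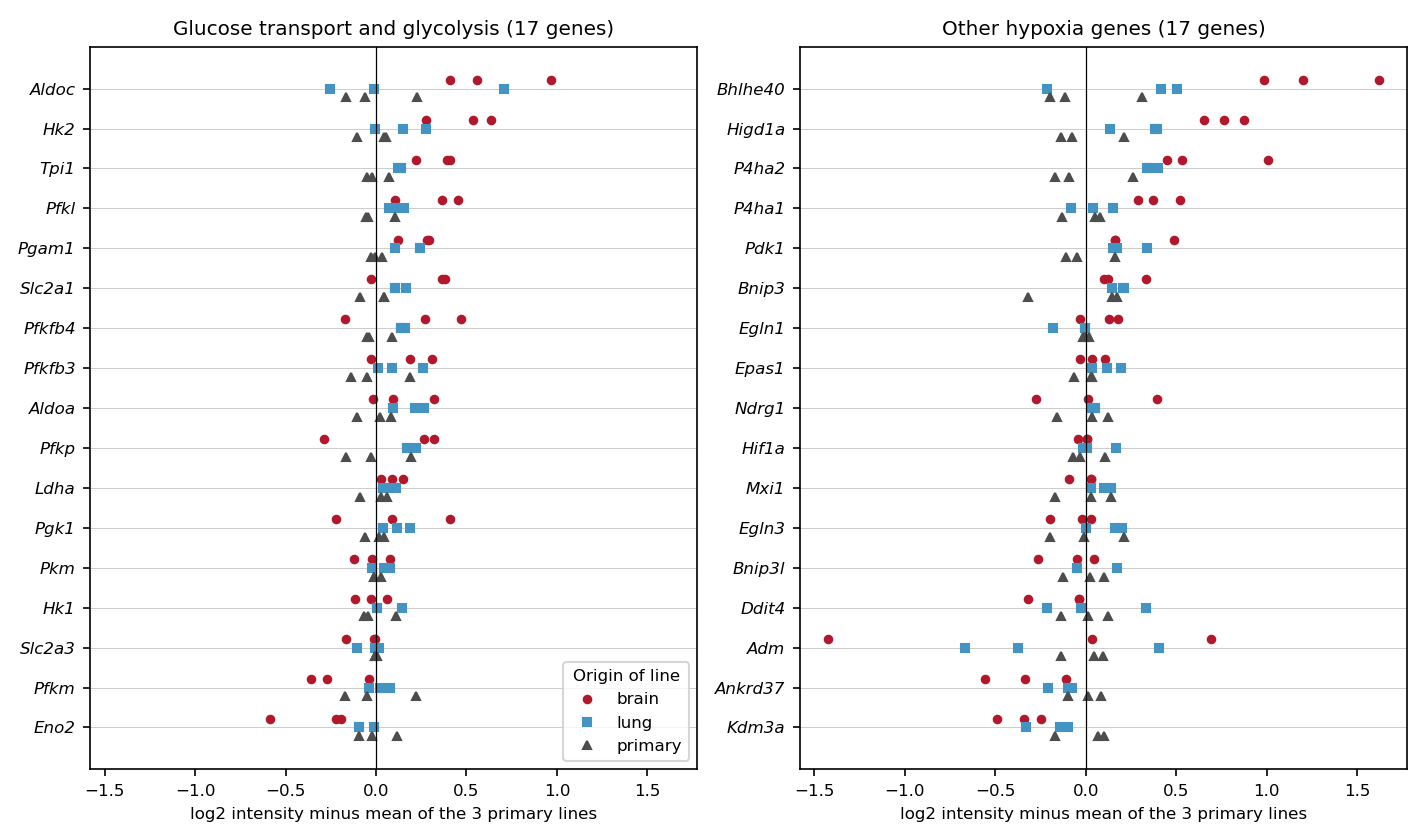
Level of each member in each of the 9 lines, as log2 intensity minus the mean of the 3 primary lines (x axis), for the 17 glycolytic (left) and 17 other hypoxia members (right), ordered by the difference between brain and primary lines, with brain lines as circles, lung lines as squares and primary lines as triangles. Bhlhe40, Higd1a and P4ha2 at the top right have all 3 brain lines to the right of the primary lines, while Adm has its brain lines spread from 4.43 to 6.55 in level.

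The oxygen sensors and the HIF subunits themselves showed no call. Hif1a, the main oxygen-regulated subunit, was measured at 10.26, 10.31 and 10.31 in brain lines, at 10.29, 10.47 and 10.31 in lung lines and at 10.27, 10.41 and 10.23 in primary lines. The 9 values run from 10.23 to 10.47, and the groups overlap. The log2 change in brain against primary lines was -0.01 (95% confidence interval -0.18 to 0.16). Epas1, the gene of the HIF-2 alpha subunit, lay close to the background mark in every line: 4.27, 4.34 and 4.41 in brain, 4.50, 4.34 and 4.42 in lung and 4.24, 4.33 and 4.34 in primary lines. These 3 sets overlap. The hydroxylase gene Egln1 ranged from 8.89 to 9.25 and Egln3, a hydroxylase that HIF itself induces, from 8.90 to 9.31 over the 9 lines, and their log2 changes in brain against primary lines were 0.09 ± 0.078 and -0.06 ± 0.111 (SE, 3 lines per origin).

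Higd1a, which encodes a small protein of the mitochondrial inner membrane induced by hypoxia, had the smallest p of all members. Its level was 8.13, 7.91 and 8.02 in brain lines, 7.39, 7.64 and 7.65 in lung lines and 7.18, 7.47 and 7.12 in primary lines. Every brain line lay above every lung and primary line, and the lung lines overlapped the primary lines. The log2 change in brain against primary lines was 0.77 ± 0.113 (SE, limma adjusted p = 0.00816), and the call was kept in all 9 fits that left out 1 line, with adjusted p from 0.0113 to 0.0373. Higd1a has another, dimmer probe set, which read 6.34, 6.24 and 6.09 in brain lines and 6.09, 5.75 and 5.80 in primary lines. There the brain and primary lines touch, and the log2 change was 0.34 ± 0.103 (adjusted p = 0.22 over all probe sets). The size of the Higd1a change, and whether it passes, therefore depend on which probe set is read.

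Bhlhe40, the gene of a basic helix-loop-helix repressor induced by hypoxia and also tied to circadian and growth signals, changed by the most. Its level was 7.90, 8.12 and 8.54 in brain lines, 6.70, 7.33 and 7.42 in lung lines and 6.80, 6.72 and 7.23 in primary lines. All brain lines exceeded all others, by at least the gap between 7.90 and 7.42. The log2 change in brain against primary lines was 1.27 ± 0.223 (SE, limma adjusted p = 0.0168). This gene also varied widely within an origin, with a residual SD of 0.336, and leaving out brain line 2 or 3, or primary line 1 or 2, ended the call (adjusted p up to 0.0707).

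Among the enzymes that hydroxylate collagen, P4ha2 and P4ha1 encode alternative catalytic subunits of prolyl 4-hydroxylase, which stabilizes the collagen triple helix. P4ha2 stood at 6.84, 6.92 and 7.40 in brain lines, 6.73, 6.74 and 6.79 in lung lines and 6.22, 6.65 and 6.30 in primary lines. The 3 origins did not overlap, with brain highest and primary lowest. Its log2 change in brain against primary lines was 0.66 ± 0.152 (adjusted p = 0.0494). That value sits at the threshold, and the call held only without brain line 1 or primary line 2 among the 9 fits that left out a line (adjusted p up to 0.16 without primary line 1). P4ha1 stood at 9.40, 9.32 and 9.55 in brain lines, 9.18, 8.95 and 9.07 in lung lines and 8.90, 9.08 and 9.11 in primary lines. Brain lines again lay above all others, with a log2 change of 0.40 ± 0.093 against primary lines that did not pass (adjusted p = 0.0532). It passed with each array centred on its median (0.0285), without the dimmest 33.3% of genes (0.0393) and with an intensity trend and robust prior (0.0462).

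**Figure D2:**
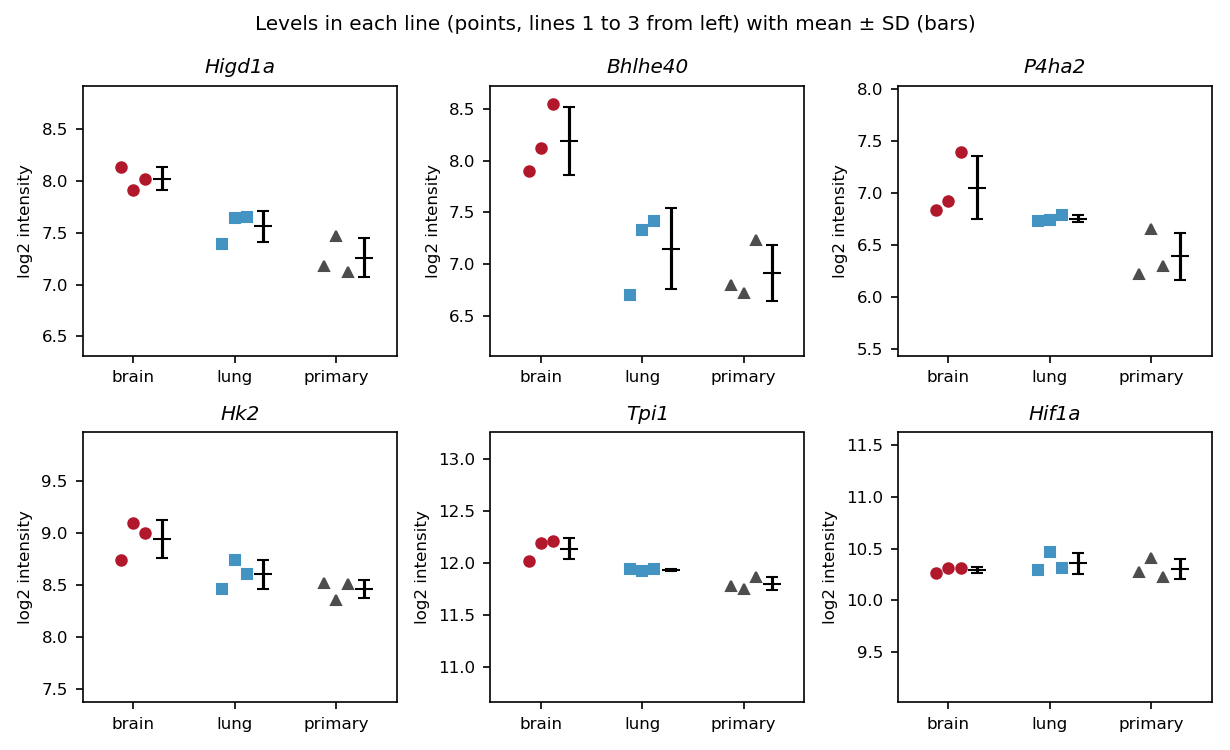
Log2 intensity (y axis) of the 5 members called higher in brain than in primary lines and of Hif1a, with 1 point per line (brain, lung and primary from left) and the mean ± SD of the 3 lines beside them. The panels share a span of 2.6 log2 units but not an origin; the brain lines of Higd1a lie between 7.91 and 8.13, above every other line, while the points of Hif1a overlap across origins.

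Genes that steer mitochondria during hypoxia gave mixed values. Pdk1, the kinase that shuts off pyruvate dehydrogenase, read 7.20, 7.20 and 7.53 in brain lines, 7.38, 7.19 and 7.21 in lung lines and 6.99, 6.93 and 7.20 in primary lines. The groups touch at 7.20, and the log2 change in brain against primary lines was 0.27 ± 0.112 (adjusted p = 0.268). The mitophagy receptor gene Bnip3 ranged from 8.54 to 9.19 and its relative Bnip3l from 10.34 to 10.78, with log2 changes of 0.19 ± 0.126 and -0.09 ± 0.102. For both, the other probe set gave changes of the same sign (0.14 and -0.07).

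The remaining hypoxia members did not pass. Kdm3a, a histone H3 lysine demethylase that uses oxygen, ranged from 7.93 to 8.17 in brain lines and from 8.25 to 8.52 in primary lines, with a log2 change of -0.36 ± 0.101 (adjusted p = 0.0963). Its groups did not overlap, and it passed, as lower, only with quantile normalization applied again (0.0374). Ankrd37, an ankyrin repeat gene induced by HIF, ranged from 5.27 to 5.72 in brain lines and from 5.73 to 5.91 in primary lines (-0.33 ± 0.110, adjusted p = 0.153). Adm, the gene of the secreted vasodilator adrenomedullin, read 5.89, 6.55 and 4.43 in brain lines, 5.19, 5.48 and 6.26 in lung lines and 5.72, 5.90 and 5.95 in primary lines. Brain lines held both its highest and its lowest value, and its interval for brain against primary lines ran from -1.26 to 0.79. Ndrg1, a stress-responsive gene often used as a hypoxia marker, ranged from 9.27 to 9.94 with a log2 change of 0.04 ± 0.146. Ddit4, whose product restrains mTORC1, changed by -0.13 ± 0.140 and Mxi1, a MYC antagonist, by -0.01 ± 0.087.

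Glucose enters through the transporters Slc2a1 and Slc2a3. Slc2a1 read 10.55, 10.96 and 10.94 in brain lines, 10.68, 10.74 and 10.68 in lung lines and 10.49, 10.62 and 10.62 in primary lines. Brain lines 2 and 3 were the 2 highest of all lines, but brain line 1 lay among the primary lines, and the log2 change of 0.24 ± 0.106 did not pass (adjusted p = 0.315, and 0.04 without brain line 1). Slc2a3 stayed near the background mark, between 4.37 and 4.55 in every line.

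Hexokinase traps glucose as glucose 6-phosphate, and Hk2 is the inducible form found in many tumors. Hk2 stood at 8.74, 9.10 and 9.0 in brain lines, 8.46, 8.74 and 8.61 in lung lines and 8.52, 8.36 and 8.51 in primary lines. Every brain line exceeded every primary line, while brain line 1 and lung line 2 were about level. The log2 change in brain against primary lines was 0.48 ± 0.108 (SE, adjusted p = 0.0444). The call was kept only without brain line 1 or lung line 1 among the fits that left out a line, and its adjusted p reached 0.147 when primary line 2 was dropped.

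Hk1, the constitutive hexokinase, needs a caution on its probe sets. The brighter one, which the selection rule takes, ranged from 12.71 to 12.97 over the 9 lines with a log2 change of -0.03 ± 0.080 in brain against primary lines. It is annotated to Hk1 through 1 accession, and 16 other probe sets that carry that accession are annotated to both Hk1 and the ribosomal protein gene Rpl17. The dimmer one carries that accession too, beside RefSeq transcripts of Hk1. It read 8.56, 8.71 and 8.49 in brain lines and 8.73, 8.90 and 8.76 in primary lines. On it every brain line lay below every primary line, with a log2 change of -0.21 ± 0.078 (adjusted p = 0.32 over all probe sets). Neither probe set passed, and the value of Hk1 under the rule may not be that of Hk1.

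**Figure D3:**
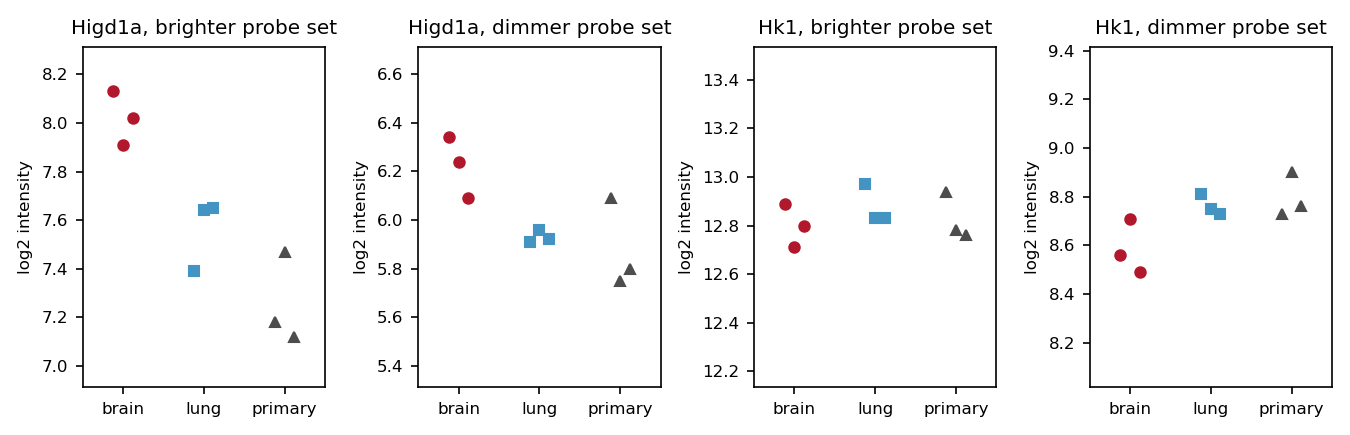
Log2 intensity (y axis) in each line for the brighter and the dimmer probe set of Higd1a and of Hk1, with brain, lung and primary lines from left and a span of 1.4 log2 units in each panel. Both Higd1a probe sets are higher on average in brain lines (changes of 0.77 and 0.34), while only the dimmer Hk1 probe set has its brain lines below its primary lines.

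Phosphofructokinase commits sugar to glycolysis and has liver, muscle and platelet forms. The liver form Pfkl changed by 0.30 ± 0.094 in brain against primary lines (adjusted p = 0.13, and 0.04 without brain line 1). The muscle form Pfkm read 8.42, 8.19 and 8.10 in brain lines, 8.48, 8.54 and 8.42 in lung lines and 8.29, 8.41 and 8.68 in primary lines (log2 change against primary lines -0.23 ± 0.113, adjusted p = 0.388). The platelet form Pfkp read 8.09, 8.64 and 8.70 in brain lines, 8.55, 8.60 and 8.55 in lung lines and 8.21, 8.35 and 8.57 in primary lines (0.10 ± 0.152). None of the 3 forms passed. Pfkfb3 and Pfkfb4 make fructose 2,6-bisphosphate, an activator of phosphofructokinase, and both are induced by hypoxia. Pfkfb4 read 6.47, 6.67 and 6.03 in brain lines, 6.34, 6.36 and 6.34 in lung lines and 6.29, 6.16 and 6.15 in primary lines, so brain lines held its highest and lowest values. Pfkfb3 ranged from 6.20 to 6.65, with a log2 change of 0.16 ± 0.117 in brain against primary lines.

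Aldolase splits the sugar, and triose phosphate isomerase interconverts the products. Tpi1 stood at 12.02, 12.19 and 12.21 in brain lines, 11.94, 11.92 and 11.94 in lung lines and 11.78, 11.75 and 11.87 in primary lines. The 3 origins were fully separated, brain above lung above primary. The log2 change in brain against primary lines was 0.34 ± 0.072 (SE, adjusted p = 0.0356), a call kept only without brain line 1 or lung line 1 (adjusted p up to 0.119 without primary line 2), and quantile normalization applied again ended it too (0.0621). Aldoc, the brain-type aldolase that hypoxia induces, read 8.08, 7.67 and 7.52 in brain lines, 7.10, 6.86 and 7.82 in lung lines and 7.05, 6.95 and 7.34 in primary lines. Its mean change of 0.64 ± 0.233 was the largest of the glycolytic members, but lung line 3 lay above brain lines 2 and 3 and the change did not pass (adjusted p = 0.203). Aldoa, the aldolase of most tissues, read 12.16, 12.50 and 12.27 in brain lines, 12.44, 12.39 and 12.27 in lung lines and 12.07, 12.20 and 12.26 in primary lines (0.13 ± 0.098 in brain against primary lines).

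The later steps turn triose phosphate into pyruvate and lactate. None of their genes passed in the fit of all 9 arrays on the deposited values. Pgam1, phosphoglycerate mutase, read 11.76, 11.77 and 11.60 in brain lines, 11.72, 11.72 and 11.58 in lung lines and 11.45, 11.51 and 11.47 in primary lines. Primary lines lay below all 6 others, with log2 changes of 0.23 ± 0.074 in brain (adjusted p = 0.139, and 0.0494 with each array centred on its median) and 0.20 ± 0.074 in lung lines (adjusted p = 0.975). Eno2, the neuron-type enolase, read 5.17, 5.20 and 4.81 in brain lines, 5.30, 5.30 and 5.38 in lung lines and 5.30, 5.37 and 5.51 in primary lines. Brain lines were the 3 lowest, and the change of -0.33 ± 0.106 did not pass (adjusted p = 0.142). The other 3 are classic HIF targets or their neighbours. Ldha, whose promoter window above held 5 matches, ranged only from 12.67 to 12.91, with a log2 change of 0.09 (95% interval -0.06 to 0.24). Pgk1, phosphoglycerate kinase, ranged from 11.81 to 12.44, with both extremes in brain lines (interval -0.21 to 0.39). Pkm, pyruvate kinase, ranged from 12.28 to 12.48 (interval -0.18 to 0.13).

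**Figure D4:**
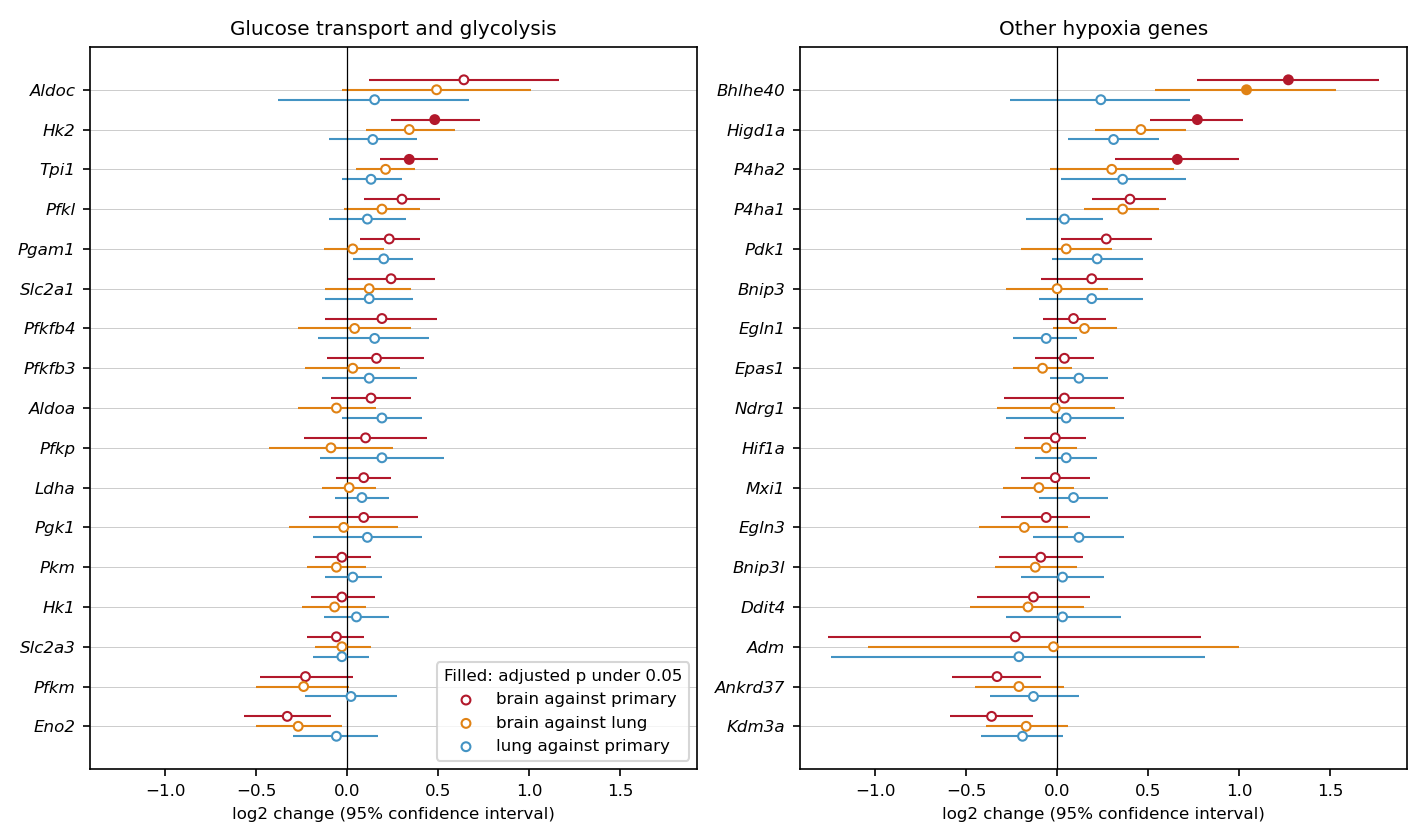
Log2 change (x axis) of each member with its 95% confidence interval in brain against primary, brain against lung and lung against primary lines, for glycolytic (left) and other hypoxia members (right). Filled circles passed an adjusted p under 0.05: 5 members in brain against primary lines, Bhlhe40 in brain against lung lines and none in lung against primary lines; the widest intervals are those of Adm.

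All 3 brain lines lay above all 3 primary lines in 8 of the 34 members, against 9.36% of all genes, and below them in 4, against 8.47%, which makes 17.8% of all genes in either direction. The 8 were the 5 called members with Aldoc, Pgam1 and P4ha1, and the 4 were Eno2, Slc2a3, Ankrd37 and Kdm3a.

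The 5 calls differed in how they held under 2 other settings. With every probe set as its own feature, which tests more features, the adjusted p was 0.0373 for Higd1a, 0.068 for Bhlhe40, 0.133 for P4ha2, 0.119 for Hk2 and 0.0843 for Tpi1. With only the 6 arrays compared it was 0.0442 for Higd1a, 0.0508 for Bhlhe40, 0.163 for P4ha2, 0.108 for Hk2 and 0.104 for Tpi1. Higd1a alone of the 5 kept its call under both, on its brighter probe set, while its dimmer probe set did not pass (0.22 with every probe set as its own feature).

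The next comparison sets brain against lung lines, both metastatic. Bhlhe40 was the only one of 34 members called, 2.05-fold higher in brain lines (log2 change 1.04 ± 0.223, SE, limma adjusted p = 0.0494), where 0.913% of all genes were called higher and 1.07% lower, or 1.98% in all. With arrays centred on their medians these calls split 296 higher to 146 lower, against 182 to 213. At an unadjusted p under 0.05 there were 6 members, against 14.9% of all genes, and 16 of 34 changes were above 0, against 46.7%. In fits that left out 1 of the 9 lines the call was kept only without primary line 3 (adjusted p 0.0481 to 0.143). Higd1a had a change of 0.46 ± 0.113 (adjusted p = 0.0806) and P4ha1 of 0.36 ± 0.093 (adjusted p = 0.0963). Both passed with each array centred on its median, at 0.0436 and 0.0468, and Higd1a also with quantile normalization again (0.0475). The Bhlhe40 call was lost with every probe set as its own feature (0.148) and with only the 6 arrays compared (0.118). Hk2 (0.34 ± 0.108) and Tpi1 (0.21 ± 0.072) did not pass. Brain lines lay above all lung lines in 6 members, against 8.27% of all genes, and below them in 2 (Eno2 and Pfkm), against 8.63%. The median log2 change was 0.013 over glycolytic and -0.019 over hypoxia members, against -0.01 over all genes, and with each array centred on its median these were 0.09 and 0.06, with 0.066 over all genes.

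Lung lines set against primary lines gave no called member. In limma 0 of 34 members passed, and 0% of all genes did, with 3 members (Higd1a, Pgam1 and P4ha2) at an unadjusted p under 0.05, against 4.74% of all genes. The highest value was that of P4ha2, 0.36 ± 0.152 on the log2 scale, then Higd1a with 0.31 ± 0.113, both at adjusted p = 0.975. Bhlhe40 had a change of 0.24 ± 0.223 and Pdk1 of 0.22 ± 0.112. Of the 34 changes 28 were above 0, against 55.5% of all genes, and the medians were 0.123 (glycolytic) and 0.049 (hypoxia) against 0.013 over all genes. Lung lines lay above all primary lines in 6 members (Slc2a1, Pfkfb4, Aldoa, Tpi1, Pgam1 and P4ha2), against 4.88% of all genes, and below them in none, against 3.84%. Members are not independent of each other, and this comparison shares its primary lines with that of brain against primary lines. Primary line 1 was the lowest of all 9 lines in 10 of the 34 members, and in 11.5% of all genes.

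A test over all 3 origins at once, limma's F test, called 2 members, Higd1a (adjusted p = 0.0194) and Bhlhe40 (adjusted p = 0.0314), where 2.36% of all genes passed. Without any single brain line, or without primary line 1, 0 members passed. The mean of the lung lines lay between those of brain and primary lines in 20 of 34 members, against 37.6% of all genes.

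Lines of 1 origin differed from each other as well. The residual SD, the spread between lines of the same origin on the log2 scale, was above the median of all genes (0.12) in 22 of 34 members and above the 95th percentile (0.259) in 3: Adm (0.708), Aldoc (0.353) and Bhlhe40 (0.336). Ldha (0.0599), Slc2a3 (0.0636) and Pkm (0.0656) varied least. Brain line 2 carried the highest value of all 9 lines in 8 of 17 glycolytic members (Slc2a1, Hk2, Pfkl, Pfkfb4, Aldoa, Pgk1, Pgam1 and Ldha), while it was the highest line in 11.0% of all genes. With the primary mean of each gene subtracted, glycolytic members averaged 0.10, 0.23 and 0.09 in brain lines 1 to 3, 0.10, 0.10 and 0.09 in lung lines and -0.04, -0.02 and 0.05 in primary lines. Hypoxia members averaged 0.09, 0.18 and 0.17 in brain lines, 0.00, 0.08 and 0.15 in lung lines and -0.09, 0.05 and 0.04 in primary lines. Without brain line 2 the glycolytic median of brain against primary lines was 0.05 in place of 0.13, and without brain line 1 it was 0.21.

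**Figure D5:**
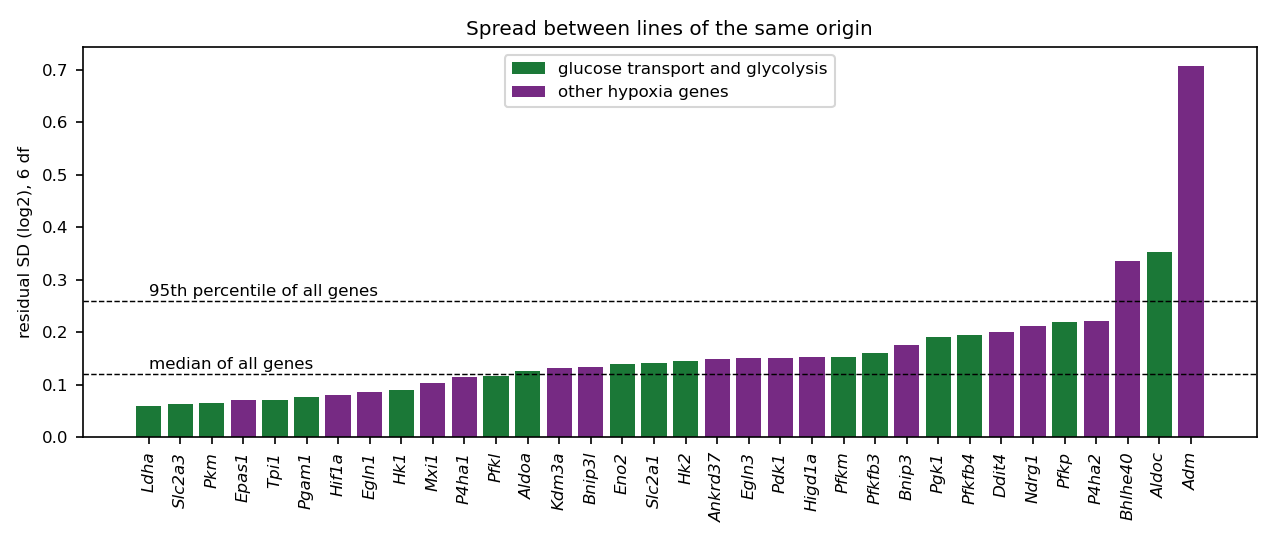
Residual SD between lines of the same origin (y axis, log2 units, 6 residual degrees of freedom) of the 34 members, in order, with dashed lines at the median and the 95th percentile of all 19938 genes. Adm, Aldoc and Bhlhe40 stand above the upper line at 0.259.

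Other genes of the pathway came from 4 further lists, of which 85 genes were tested. In brain against primary lines 5 rose and 1 fell, where 3.13% of all genes were called in either direction. By list, in the order below, the share called was 9.09%, 11.1%, 3.7% and 5%. These lists were chosen with earlier results of these data known, so the shares are a description only. Among 11 HIF subunits and regulators 1 rose, Siah2, a ubiquitin ligase that targets prolyl hydroxylases: it read 8.58, 8.62 and 8.63 in brain lines, 8.12, 7.95 and 8.06 in lung lines and 7.75, 7.74 and 8.19 in primary lines. Brain lines exceeded all others (log2 change against primary lines 0.72 ± 0.114, adjusted p = 0.0111), and the call was kept in all 9 fits that left out a line. Among 27 other hypoxia-induced genes 3 rose: the carbonic anhydrase genes Car9 and Car12, which help export acid, and Fam162a, a mitochondrial protein gene induced by HIF. Of the 27 log2 changes 12 were above 0 and 15 below, from -0.96 to 1.42 with a median of -0.009. Car9 read 8.37, 9.11 and 8.43 in brain lines, 7.62, 7.69 and 7.82 in lung lines and 7.14, 7.21 and 7.31 in primary lines, so the 3 origins did not overlap. Car12 read 8.82, 8.79 and 9.13 in brain lines, 7.77, 7.81 and 7.99 in lung lines and 7.54, 7.72 and 7.24 in primary lines, again without overlap.

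Fam162a read 10.29, 10.15 and 10.13 in brain lines and 9.79, 9.90 and 9.74 in primary lines (log2 change 0.38 ± 0.077, adjusted p = 0.0301, kept in 2 of 9 fits that left out a line). Among 27 further glycolytic and gluconeogenic enzymes 1 fell, Pgm2l1, which makes glucose 1,6-bisphosphate: it read 6.20, 6.42 and 6.29 in brain lines and 6.74, 6.81 and 6.75 in primary lines (-0.46 ± 0.103, adjusted p = 0.0429, kept in 2 of 9). Among 20 genes of lactate and pyruvate fate 1 rose, Me1, the malic enzyme that yields pyruvate: it read 9.17, 9.22 and 9.17 in brain lines and 8.84, 8.94 and 8.80 in primary lines (0.33 ± 0.064, adjusted p = 0.0259, kept in 4 of 9). With every probe set as its own feature the adjusted p was 0.0778 for Fam162a, 0.114 for Pgm2l1 and 0.06 for Me1, and with only the 6 arrays compared it was 0.0632 for Siah2, 0.0771 for Fam162a and 0.0702 for Me1. Quantile normalization again ended the call of Fam162a (0.0579), and median centring that of Pgm2l1 (0.0851). In Fam162a, Pgm2l1 and Me1 no brain line reached the range of the primary lines.

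In brain against lung lines 3 of the 85 rose and none fell, where 1.98% of all genes were called in either direction. They were Car12 (log2 change 1.06 ± 0.134), Car9 (0.93 ± 0.170) and Siah2 (0.57 ± 0.114, adjusted p = 0.0378). Leaving out 1 line at a time, Car12 kept its call in 9 of 9 fits and Car9 in 6, losing it without any 1 of the lung lines (adjusted p up to 0.108). Siah2 kept it in 2 of 9, without primary line 2 or 3 (up to 0.153 otherwise), and missed it with quantile normalization again (0.0521). With every probe set as its own feature the adjusted p was 0.0378 for Car12, 0.0916 for Car9 and 0.116 for Siah2, and Car9 also missed it with only the 6 arrays compared (0.101). With the mouse number as a block the count was 7. The case for pairing brain and lung lines comes from correlations in these same data, so the added calls are a description only. The share of all genes called with this block is not given here. Those added were Mpc1 (0.39 ± 0.079, adjusted p = 0.0439), Pcx (-0.55 ± 0.085, 0.0192), Pgm2l1 (-0.43 ± 0.078, 0.0312) and Plod1 (-0.45 ± 0.094, 0.0468). Mpc1 encodes a subunit of the mitochondrial pyruvate carrier, Pcx pyruvate carboxylase and Plod1 a lysyl hydroxylase of collagen. The lactate transporter gene Slc16a1 read 11.30, 11.32 and 11.34 in brain lines and 11.04, 11.03 and 11.03 in lung lines, separated but not called (adjusted p = 0.0638). Gpd1l, related to glycerol 3-phosphate dehydrogenase, read 7.82, 7.73 and 7.68 in brain lines and 7.93, 8.22 and 8.13 in lung lines, again separated and not called (adjusted p = 0.164). In lung against primary lines none of the 85 passed in limma, with 8 at an unadjusted p under 0.05, against 4.74% of all genes. The 2 with the smallest p in each list, all at adjusted p = 0.975, were Siah1a (-0.29 ± 0.116) and Arnt2 (0.16 ± 0.088), Car9 (0.49 ± 0.170) and Car12 (0.35 ± 0.134), Slc2a5 (-0.60 ± 0.265) and Eno4 (0.20 ± 0.094), and Me1 (0.27 ± 0.064) and Pdhx (0.20 ± 0.098), as log2 changes with their SE. In Car9, Car12 and Me1 every lung line lay above every primary line.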

How the data were processed

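RNA of 9 lines was hybridised to 1 array each. The deposited values are log2 intensities per probe set, from RMA per the submitters' processing notes, a method that corrects background, quantile normalizes arrays and summarises probes. The base of the logarithm was taken from the range of the values. The notes give neither version nor build. The number of arrays limits the precision.

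Of 35557 probe sets, 21789 carried 1 gene symbol in the platform annotation, 1621 several and 12147 none. The probe set of highest mean was kept per symbol, giving 19938 genes. Limma 3.58.1 in R 4.3.3 fitted the 9 arrays together, estimating 1 mean per origin (6 residual and 3.72 prior degrees of freedom). With 3 lines a side, the smallest p an exact permutation test allows is 0.1, so none was run. Data simulated for brain against primary lines over 19938 genes held log2 changes of 0.5 and 1 in 100 genes each. Of these 71% and 100% were recovered, with 11 false calls in the same simulation. It drew independent normal values, with the spread of a gene equal on all arrays. The real arrays differ in spread and the real lines may be less independent, so these figures are not the power or error of the real comparison.

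The members and lists were chosen with earlier results of these data known. Line-by-line values are given for called members, the 4 largest changes per list and comparison, the 3 largest residual SDs per list and both HIF subunits, and for some others chosen after their values were seen. Of the other lists, called genes are named, or the 2 with the smallest p.

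Mouse numbers recur in each origin. Deviations of same-numbered lines from their origin's mean had correlations of 0.284, 0.130 and 0.241 for the brain and lung pairs, of -0.0442 to 0.0666 between brain and primary and of 0.00798 to 0.221 between lung and primary lines, taken over genes. Only the first set lies above 0.1 throughout. Brain and lung lines of different number had correlations of -0.223 to 0.0356. Deviations within an origin sum to 0, so these correlations are not independent of each other. The pairing comes from the data alone.

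Promoter sequences are those of RefSeq (GRCm38.p6), searched on both strands. The alternatives were quantile normalization again, centring on array medians, a limma prior that follows intensity and resists outliers, a fit without the dimmest 33.3% of genes, the replicate block, every probe set as its own feature, only the 6 arrays compared, and leaving out each line.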

Additional observations from a re-analysis of the deposited data

How the results depend on the processing

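Of 116 counts and medians recomputed under the 7 settings other than leaving out a line, 98 stayed within 1.5 times the reported count or within the spread between lines of the median, and 18 moved. Some of the 98 could not move. The intensity trend and robust prior, the replicate block, every probe set as its own feature and only the 6 arrays compared leave the log2 changes, and so the medians, unchanged by construction. Counts that stayed at 0 are also among the 98, so that number does not measure robustness. In brain against primary lines the count of called glycolytic members (2) was 1 with quantile normalization again and 0 with every probe set as its own feature or only the 6 arrays compared, and that of hypoxia members (3) was 1 under each of the last 2 settings. The count of other pathway genes (6) was 10 without the dimmest 33.3% of genes, which tests fewer genes, and 3 with every probe set or with 6 arrays. In brain against lung lines the hypoxia count (1) was 2 with quantile normalization again, 3 with arrays centred on their medians and 0 with every probe set or 6 arrays. Calls over all genes in brain against lung lines moved too. They were 182 higher and 213 lower as reported, 234 and 291 with quantile normalization again, and 296 and 146 with centring. There the count of other pathway genes (3) was 7 with the replicate block and 1 with every probe set. The F test count (2) was 0 with every probe set. Quantile normalization again called 373 of all genes higher and 430 lower in brain against primary lines, against 311 and 313. The share of all genes called under the remaining settings, and in fits that left out a line, is not given here. Changes in these counts are therefore not read as results about the members. Centring on array medians moved the glycolytic median to 0.20 (0.13 as reported) in brain against primary lines. In brain against lung lines it moved the glycolytic median to 0.09 (0.01) and the hypoxia median to 0.06 (-0.02). That centring itself shifted the median of all genes to 0.07 and 0.066, and the split of calls in brain against primary lines to 459 higher and 218 lower, against 311 and 313. Other causes were not tested.

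Leaving out each line gave, in brain against primary lines, 0 to 4 glycolytic calls (0 without brain line 2 or 3, lung line 2 or 3 or any primary line, 4 without brain line 1), 1 to 3 hypoxia calls (1 without brain line 2 or 3 or primary line 1), 3 to 8 other pathway calls (3 without primary line 1 or 3) and a glycolytic median of 0.05 to 0.21. In brain against lung lines it gave 0 to 1 hypoxia calls (0 without any line but primary line 3) and 1 to 5 other pathway calls (1 without any lung line, 5 without primary line 3), and the F test 0 to 2 calls. In lung against primary lines the counts stayed at 0 in all 9 fits. The replicate block changed no call of a member. No called member changed sign under any setting run.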

Other observations

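The 20 members (58.8%) whose lung mean lay between the brain and primary means are a count with no test: 11 of 17 glycolytic and 9 of 17 hypoxia members. They included the 5 members called in brain against primary lines. Some of the differences behind this order are within error, among those 5 too. Bhlhe40 changed by 0.24 ± 0.223 (SE) in lung against primary lines, where no member passed. Bnip3 had means of 9.04 in brain, 9.04 in lung and 8.86 in primary lines.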
